A study of Canis lupus familiaris with 16 samples.

Results

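The 10 transcripts followed here encode the receptor tyrosine kinases PDGFRA, PDGFRB, KIT and CSF1R and the growth factors that bind them, PDGFA, PDGFB, PDGFC, PDGFD, KITLG and CSF1. They were taken by symbol from the gene count files, where all 10 were present with 1 entry each among 39543 symbols, and they comprise 4 receptors and 6 ligands. The libraries came from 4 cell lines cultured from canine hepatic tumours. They are KU-cHCC-001 and KU-cHCC-002, together with KU-cHCC-004 and lastly KU-cHCC-005, and where 4 values follow each other below they stand in this order. Each line was exposed for 24 h to sorafenib at 30 µM, toceranib at 15 µM, DMSO (the vehicle of sorafenib) or DPBS (the vehicle of toceranib), with 1 library per line and treatment and 16 libraries in all. All groups were grown in the same medium with fetal bovine serum, which holds growth factors of its own. No label gives a genotype, passage or clone number for the lines.

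PDGF ligands form dimers that bind and pair PDGFRA and PDGFRB, which then phosphorylate each other and recruit adaptors, phospholipase C and PI3 kinase. KIT with its ligand KITLG, also called stem cell factor, and CSF1R with its ligand CSF1 work in the same way and belong to the same kinase class. In liver the PDGF receptors are known from stellate cells and fibroblasts, KIT from mast cells and some progenitor cells, and CSF1R from macrophages. Sorafenib is a kinase inhibitor whose targets include PDGFRB and KIT, and toceranib, a drug for dogs, inhibits KIT and the PDGF and VEGF receptors. The comparisons ask whether these targets and their ligands are expressed in each line and how they differ with each drug.

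Total counts per library ran from 12008366 to 21943572, and levels are given as CPM (counts scaled to library size) on library sizes scaled by the trimmed mean of M values (TMM). All values come from 1 library per line and treatment. Where the line was fitted as a block, p-values thus measure how treatment differences vary between the lines. This holds for the test between lines too, since the libraries of a line differ in treatment. In the comparisons with DPBS, fitted without the line, p-values measure the spread between libraries. The labelled cell type is hepatocellular carcinoma, and the hepatocyte markers were mixed. Albumin (ALB) was at 0.42 CPM or less in every library and SERPINA1 at 0 in all 16, while HNF4A, a hepatocyte transcription factor, was at 2.64 to 118 CPM and APOB reached 167 CPM. EPCAM, a marker of bile duct epithelium, was at 205 CPM or more in every library. Other bile duct markers varied more, with KRT19 at 5.93 to 5076 CPM and CLDN4 at 1.60 to 801 CPM. With DMSO, sorafenib and toceranib, the 9 listed bile duct markers summed to 2012 to 5465 CPM in KU-cHCC-001. In the other lines they summed to 17836 to 33592 CPM with these treatments. The line labels of the DPBS libraries were in doubt, most clearly for the one labelled KU-cHCC-001. Over 605 genes that KU-cHCC-001 expressed at 4-fold or more the level of each other line with DMSO and sorafenib, the median log2(CPM + 0.5) was 3.95 with toceranib in KU-cHCC-001 but -0.72 in DPBS labelled KU-cHCC-001. The DPBS libraries labelled 002 and 005, and those labelled 001 and 004, differed by 2.35 and 2.51 times the variance of sampling noise, over 10696 genes, against 11.5 times or more for any other library pair. The toceranib libraries of KU-cHCC-004 and 005 came next, at 11.5 times from each other. The nearest DMSO library had the same label for DPBS 004 and 005, at 44.3 and 41.2 times. For DPBS 001 and 002 it was DMSO 004 and DMSO 005, at 45.7 and 42.6 times. Toceranib 005 was at 15.2 times from DPBS 005, and toceranib 002 at 20.6 times from DPBS 004. Toceranib 004 and 005 were at 34.0 and 38.0 times from DMSO of their own lines, their nearest DMSO libraries. Toceranib 001 and 002 were further from DMSO of their own lines, toceranib 002 at 72.6 times. Sorafenib libraries were at 39.8 to 69.4 times from theirs. The distances from DMSO thus do not set toceranib 004 and 005 apart from their labels. The calls of PDGFD, KITLG and PDGFA with toceranib are also given without the toceranib libraries of KU-cHCC-004 and 005. The 16 fibroblast and pericyte markers summed to 944 and 1064 CPM in DPBS 002 and 005 and to 876 CPM in toceranib 005, against 22.6 to 241 CPM in the other 13 libraries. Each drug was therefore compared with DMSO of the same line, and values with DPBS are given by label only.

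PDGFRA was the only receptor of the 4 that reached 1 CPM in any library, and it did so in all 16. With DMSO the 4 lines, in the order given above, stood at 59.9, 2.52, 9.52 and 2.21 CPM. With sorafenib the levels were 29.1, 10.5, 16.7 and 5.71 CPM in the same order, and with toceranib 37.3, 2.64, 5.99 and 3.20 CPM. KU-cHCC-001 was thus highest under each of these treatments. The 4 DPBS libraries lay at 1.501, 3.505, 2.37 and 2.67 CPM, so the one labelled KU-cHCC-001 had the lowest PDGFRA of all 16.

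Averaged over DMSO, sorafenib and toceranib, PDGFRA was 42.1 ± 15.95 CPM (SD, n = 3) in KU-cHCC-001. It was followed by KU-cHCC-004 at 10.7 ± 5.48, KU-cHCC-002 at 5.21 ± 4.56 and KU-cHCC-005 at 3.71 ± 1.81 CPM. The 3 libraries of KU-cHCC-001 did not overlap those of KU-cHCC-004, whereas the lower neighbours overlapped. PDGFRA differed between the lines (edgeR F-test, adjusted p = 2.49e-04). The 16 fibroblast markers were read beside PDGFRA. With DMSO, COL1A1 (40.7 CPM), DES (135 CPM) and THY1 (15.0 CPM) were highest in KU-cHCC-001, as PDGFRA was. In that library 4 of the 16 markers reached 5 CPM, against 1 in each other line. The list summed to 207 CPM there against 43.6, 216 and 22.6 CPM in the other lines. TAGLN alone, at 209 CPM, made up most of the 216 CPM in KU-cHCC-004. In DPBS 002, DPBS 005 and toceranib 005, where the list summed highest, PDGFRA stood at 3.505, 2.67 and 3.20 CPM. The collagen gene COL3A1 and the proteoglycan DCN were at 0 in all 8 DMSO and sorafenib libraries, in which PDGFRA was measured at 2.21 to 59.9 CPM. The part of fibroblast-like cells in the PDGFRA levels was not tested.

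The other 3 receptors were at or near 0. KIT, the best known target of toceranib, had 2 counts in all, 1 in sorafenib 001 and 1 in sorafenib 005. CSF1R had 5 counts in 3 libraries, 2 in DMSO 005, 2 in toceranib 001 and 1 in toceranib 005. Pooled over all libraries these are 0.0068 CPM for KIT (95% exact Poisson interval 0.00082 to 0.025) and 0.017 CPM for CSF1R (0.0055 to 0.040). A count of 0 in a library allows up to 3 counts, or 0.126 to 0.253 CPM at these depths, and all such limits cover counting error only. PDGFRA and KIT are direct neighbours among the protein-coding genes of the RefSeq annotation, as are PDGFRB and CSF1R.

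PDGFRB had 52 counts over 11 of the 16 libraries and reached 10 counts or more in DPBS 002 alone, at 0.654 CPM. With DMSO it had 1 count, in KU-cHCC-002, and with sorafenib 0 to 0.301 CPM. With toceranib it was 0, 0.480, 0.275 and 0.337 CPM. All 4 DPBS libraries had PDGFRB counts, at 0.237 to 0.654 CPM. PDGFRB, KIT and CSF1R did not pass the filter on low counts and were not tested. In bulk RNA, fewer cells of a type and less RNA per cell cannot be told apart.

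Markers of the cells that carry these receptors in tissue were looked up in the same libraries. Of 8 mast cell markers 7 were in the files, and CPA3, HDC, MS4A2, FCER1A and CMA1 were at 0 in all 16 libraries. The list summed to 0.156 to 21.4 CPM, most of it GATA2, a transcription factor that other cells also express. Of 16 macrophage markers, TYROBP, FCER1G, C1QA, C1QB, C1QC and MARCO were at 0 in all 16 libraries and SPI1, the macrophage transcription factor, was at most 0.12 CPM. CD14, on the same list, was at 9.44 to 84.2 CPM in all 16 libraries, and CD68 at 0.118 to 6.44 CPM, higher with sorafenib than with DMSO (log2 fold change 2.33 ± 0.39, edgeR adjusted p = 0.00361). The list summed to 15.4 to 334 CPM, the highest in toceranib 001, where CD74 stood at 320 CPM. Beside KIT and CSF1R near 0, 5 mast cell and 6 macrophage markers were thus at 0 throughout, and CD14 was not. Of the other lists, endothelial markers summed to 6.04 to 271 CPM, bile duct markers to 2012 to 33592 CPM and hepatocyte markers to 6.32 to 245 CPM.

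**Figure D1:**
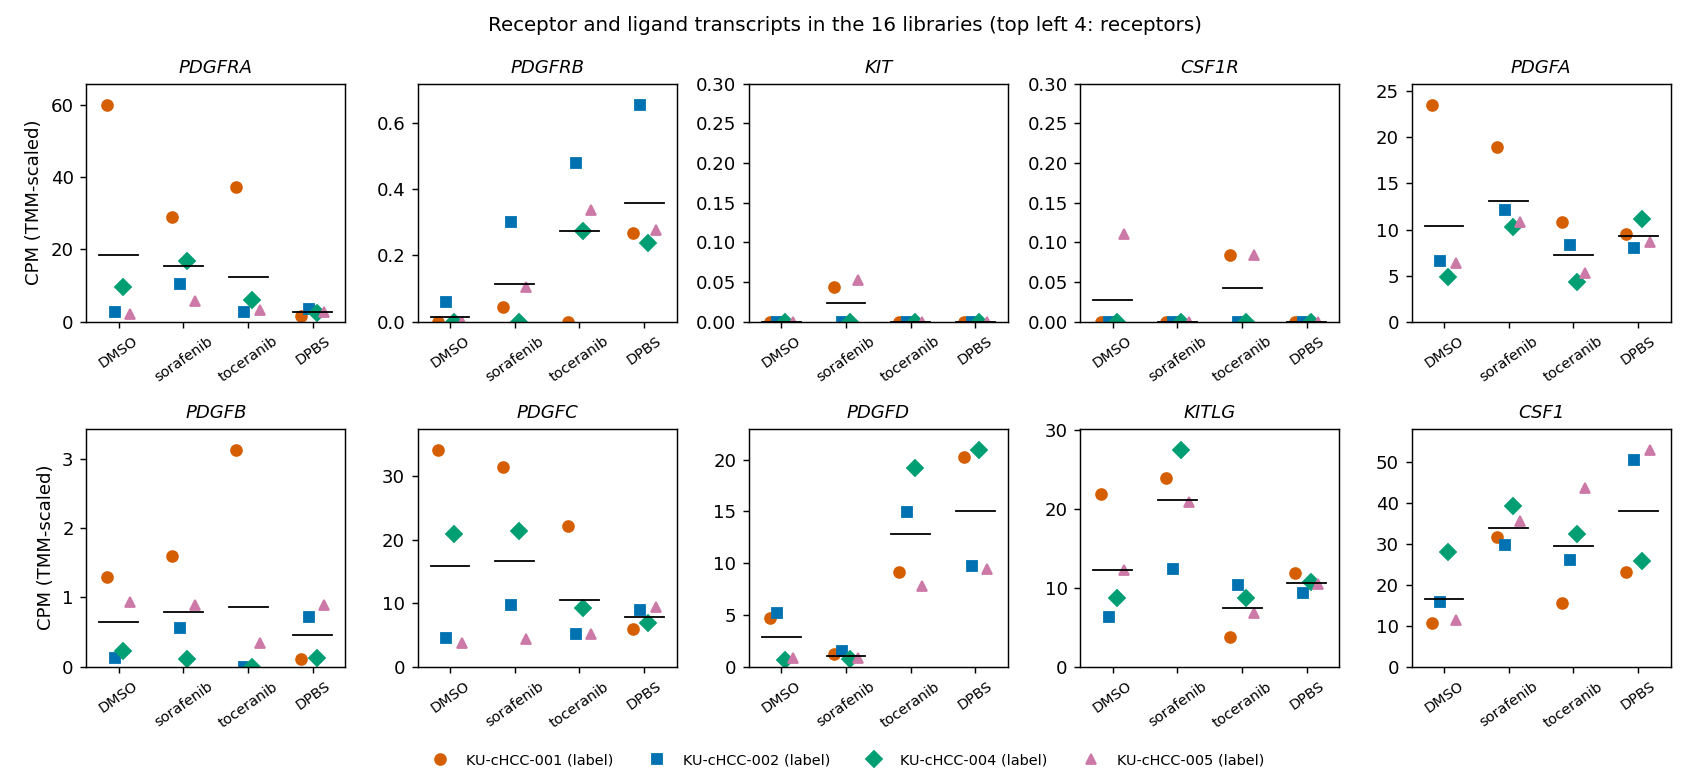
CPM (linear axis from 0) of the 10 transcripts in each library, by treatment; colours and shapes give the labelled line and the black bar is the mean of the 4 libraries. PDGFRA is highest in KU-cHCC-001 except with DPBS, PDGFRB, KIT and CSF1R stay under 1 CPM, and PDGFD is higher with toceranib and DPBS than with DMSO and sorafenib.

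Ligand transcripts were present where most receptors were not. KITLG and CSF1 were at 1 CPM or more in every library, as were PDGFA and PDGFC, while KIT and CSF1R were not. The receptor of KITLG had at most 1 count in a library, and that of CSF1 at most 2. In all 4 lines PDGFRA was accompanied by at least 2 PDGF ligands at 1 CPM or more under DMSO, sorafenib and toceranib, with 4, 3, 2 and 2 of the 4 ligands reaching it. Levels were not ranked between genes, since counts are not scaled by transcript length.

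PDGFC, which is secreted latent and freed by proteases such as tissue plasminogen activator, followed the same order of lines as PDGFRA. With DMSO it was 34.0, 4.50, 20.9 and 3.69 CPM. Over 3 treatments the means were 29.2 ± 6.25 (SD, n = 3), 6.46 ± 2.89, 17.2 ± 6.82 and 4.38 ± 0.726 CPM. The libraries of KU-cHCC-001 did not overlap those of KU-cHCC-004, and the neighbours below did overlap. PDGFC differed between the lines (edgeR F-test, adjusted p = 2.75e-04).

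PDGFA, a ligand of PDGFRA, was 23.5 CPM in DMSO of KU-cHCC-001 and 4.84 to 6.60 CPM in DMSO of the other lines. Over 3 treatments it averaged 17.8 ± 6.44 CPM (SD, n = 3) in KU-cHCC-001 against 6.50 to 9.03 CPM in the others, and neighbouring lines overlapped throughout. PDGFB, which binds both receptors, was low: 0.120 to 1.29 CPM with DMSO, 0.106 to 1.60 with sorafenib and 0 to 3.12 with toceranib, each time highest in KU-cHCC-001. Its mean over 3 treatments was 2.003 ± 0.979 CPM in KU-cHCC-001, whose libraries did not overlap those of KU-cHCC-005 at 0.719 ± 0.332 CPM. The edgeR F-test gave adjusted p = 0.00723 for PDGFA and 0.0108 for PDGFB.

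In all, 4 of the 7 tested members differed between the lines, PDGFRA, PDGFA, PDGFB and PDGFC, against 42.1% of the 14938 genes tested. The share among the members is thus near that of all genes. PDGFD (edgeR adjusted p = 0.235), KITLG (0.768) and CSF1 (0.156) did not pass, although PDGFD (0.0356) and KITLG (0.0292) did in the DMSO and sorafenib libraries alone. Adding the DPBS libraries by their labels ended the 4 calls (edgeR adjusted p = 0.0549 for PDGFRA, 0.0809 for PDGFA, 0.108 for PDGFB and 0.0774 for PDGFC, so 0 of 7).

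Sorafenib against DMSO asked what the drug does to these transcripts. CSF1, the growth factor of macrophages, rose in all 4 lines. With DMSO it was 10.6, 15.8, 28.2 and 11.5 CPM, and with sorafenib 31.7, 29.7, 39.2 and 35.7 CPM. The sorafenib libraries all lay above the DMSO libraries and were closer together. The mean went from 16.5 ± 8.09 to 34.1 ± 4.26 CPM (SD, n = 4), or 1.102 ± 0.28 on the log2 scale (SE; adjusted p = 0.0199 by edgeR). The ratios within a line were 2.98, 1.88, 1.39 and 3.11. The fibroblast marker sum beside it was 22.6 to 216 CPM with DMSO and 29.4 to 134 CPM with sorafenib.

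CSF1 was the 1 member called of 7 tested, against 19.6% of 14938 genes (9.59% higher and 10.1% lower), which is again near the background. Its call ended without KU-cHCC-002 (edgeR adjusted p = 0.0878), KU-cHCC-004 (0.0526) or KU-cHCC-005 (0.0615) and without the line term (0.142), while the log2 fold change stayed between 0.94 and 1.35 over all alternatives. The median log2 fold change of all genes was -0.02.

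PDGFRA was lower with sorafenib in KU-cHCC-001 and higher in the other 3 lines. Sorafenib over DMSO was 0.485 in KU-cHCC-001, with a 95% interval of counting error of 0.441 to 0.534, but 4.16 (2.97 to 5.94), 1.76 (1.45 to 2.13) and 2.59 (1.79 to 3.82) in the other lines. Over the 4 lines PDGFRA did not pass (log2 fold change 0.78 ± 0.42, edgeR adjusted p = 0.208). In the fit without KU-cHCC-001, the only line with a lower ratio, PDGFRA passed (1.37, edgeR adjusted p = 0.0128). Leaving out that line makes PDGFRA higher in 3 of 3 lines by choice, so this fit is no separate support. Counts of all genes called with a line left out are given with the alternatives below. With 1 library per line and treatment, the difference between the lines was not tested.

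PDGFA had the same split, and KITLG was higher in every line but KU-cHCC-001, where its interval included no difference. PDGFA stood at 19.0, 12.1, 10.3 and 10.9 CPM with sorafenib in the order of the line numbers, against 23.5, 6.60, 4.84 and 6.40 CPM with DMSO. It was thus lower in KU-cHCC-001 and higher in the other 3 lines. KITLG, a survival factor for mast cells, melanocytes and germ cells, stood at 23.9, 12.3, 27.4 and 20.9 CPM with sorafenib against 22.0, 6.24, 8.67 and 12.3 CPM with DMSO. The KITLG ratio was 1.09 in KU-cHCC-001, with a counting interval of 0.958 to 1.24 that includes 1, and 1.70 to 3.16 in the other lines. Neither passed over the 4 lines (PDGFA 0.55 ± 0.28, edgeR adjusted p = 0.191; KITLG 0.78 ± 0.42, 0.215). Without KU-cHCC-001, the line with the lowest ratio of each, both passed (PDGFA 0.90, edgeR adjusted p = 0.0248, and KITLG 1.12, 0.0253). As for PDGFRA, leaving out that line keeps the higher ratios by choice, so these fits are no separate support. KITLG also passed in the 8 DMSO and sorafenib libraries alone (0.84, edgeR adjusted p = 0.0282).

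PDGFD, a ligand that binds mainly PDGFRB and is freed by urokinase, was 4.69, 5.16, 0.676 and 0.882 CPM with DMSO and 1.21, 1.504, 0.741 and 0.831 CPM with sorafenib. It was lower with sorafenib in KU-cHCC-001 and KU-cHCC-002, where it was highest with DMSO, at ratios of 0.259 and 0.291. The counting intervals of the ratio included 1 in the remaining lines. PDGFD did not pass (-1.22 ± 0.54, edgeR adjusted p = 0.138), and neither did PDGFC (0.26 ± 0.29, 0.570) or PDGFB (0.36 ± 0.79, 0.788).

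**Figure D2:**
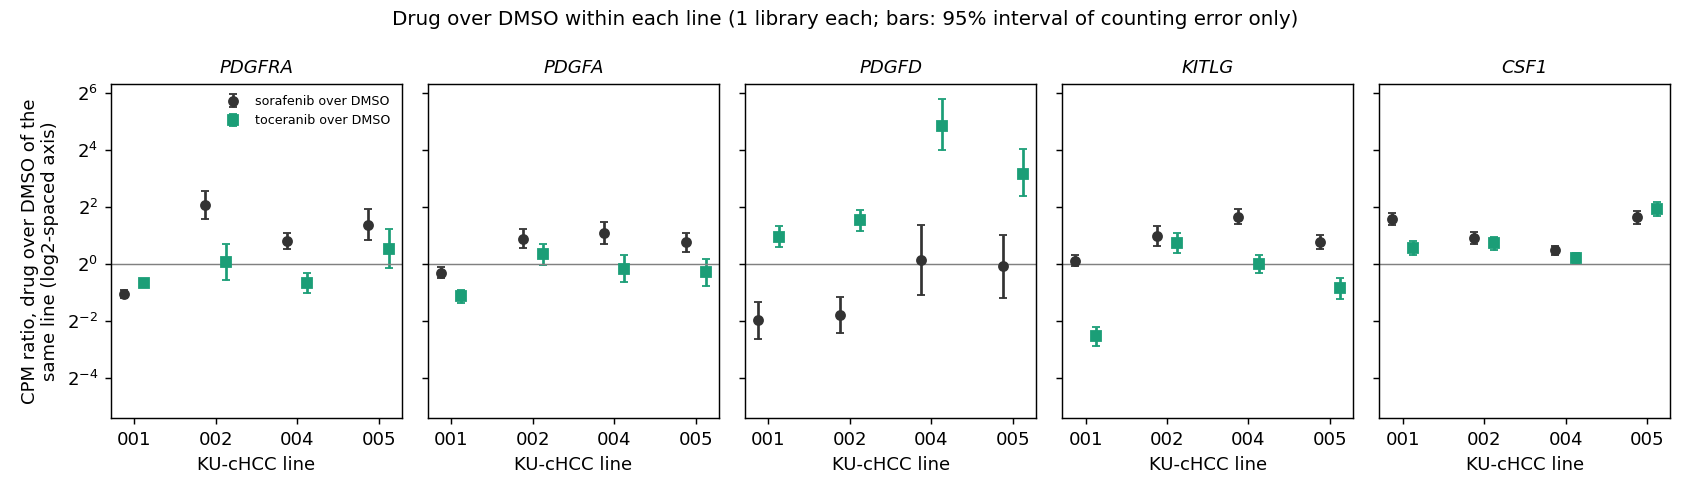
Ratio of CPM, drug over DMSO of the same line, for 5 members in the 4 lines (log2-spaced axis); black circles are sorafenib, green squares toceranib, and bars are 95% intervals of counting error only. Sorafenib gives PDGFRA 0.485 in KU-cHCC-001 and 1.76 to 4.16 in the other lines, and toceranib gives PDGFD 1.95 to 28.4 in the 4 lines.

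Toceranib against DMSO showed its main difference in PDGFD. With toceranib PDGFD was 9.15, 14.9, 19.2 and 7.84 CPM, all above the DMSO libraries at 0.676 to 5.16 CPM. The mean went from 2.85 ± 2.40 to 12.8 ± 5.27 CPM (SD, n = 4), or 2.45 ± 0.54 on the log2 scale (SE; adjusted p = 0.0290 by edgeR). The ratio within a line was 1.95, 2.90, 28.4 and 8.89 in the order of the line numbers. The highest 2 thus rest on the toceranib libraries of KU-cHCC-004 and 005, which lie close to each other. Both lay nearer to a DPBS library than to DMSO of their own line. This held for toceranib 002 as well (20.6 times from DPBS 004 against 72.6 times from DMSO 002), but not for toceranib 001. The DPBS libraries were as high, at 20.2, 9.74, 20.9 and 9.45 CPM by label, so PDGFD was high in all 8 libraries given toceranib or its vehicle and low in all 8 given DMSO or sorafenib. Drug and vehicle cannot be told apart in the comparison with DMSO.

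PDGFD was 1 of 7 members called with toceranib, against 7.46% of 14938 genes (4.31% higher and 3.15% lower). Its call ended when any line other than KU-cHCC-001 was left out (edgeR adjusted p = 0.120 to 0.190), without the toceranib library of KU-cHCC-005 (2.40, 0.0875), without that and the one of KU-cHCC-004 (1.57, 0.170), in the 8 libraries alone (0.0840) and without the line term (0.200). PDGFD was higher in 4 of 4 lines. The number of genes called rested on the lines in the same way, at 3044 without KU-cHCC-001 but 7, 4 and 1 without each of the other lines in turn.

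CSF1 was 15.6, 26.1, 32.5 and 43.8 CPM with toceranib, higher than DMSO in 4 of 4 lines at ratios of 1.16 to 3.81. It did not pass (log2 fold change 0.84 ± 0.28, edgeR adjusted p = 0.0848), although it did without KU-cHCC-001 (0.95, 0.0380) and by DESeq2 (0.86, 0.0340). Without the toceranib library of KU-cHCC-005 it was 0.54 (edgeR adjusted p = 0.260). The 3 highest CSF1 values of all 16 libraries were 53.0 CPM in DPBS 005, 50.5 CPM in DPBS 002 and 43.8 CPM in toceranib 005. These are the libraries with the highest fibroblast marker sums, and the part of that signal in CSF1 was not tested.

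KITLG split with toceranib. It was 3.79 CPM in KU-cHCC-001 against 22.0 CPM with DMSO, a ratio of 0.173 (0.136 to 0.217). In the other lines it was 10.4, 8.68 and 6.83 CPM, at ratios of 1.66, 1.00 and 0.555. KITLG did not pass (-0.62 ± 0.45, edgeR adjusted p = 0.389), and without KU-cHCC-001 its log2 fold change was 0.01. PDGFRA (-0.31 ± 0.41, edgeR adjusted p = 0.662), PDGFA (-0.35 ± 0.28, 0.445), PDGFC (-0.33 ± 0.30, 0.504) and PDGFB (-0.37 ± 0.81, 0.802) did not pass either. PDGFA was 10.8 CPM with toceranib in KU-cHCC-001, less than its 23.5 CPM with DMSO, and 4.34 to 8.34 CPM in the other lines. PDGFC was 22.1, 5.10, 9.29 and 5.14 CPM.

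Toceranib against DPBS, the vehicle the study names, was tested over 8 libraries without the line. Of 6 members tested 0 were called by edgeR and 0 by DESeq2. At an unadjusted p under 0.05 there was 1 member, and 1799 of the 14588 genes tested. Of all 14588 genes 0.00685% were called, 0.00685% higher and 0% lower, the 1 gene being the aryl hydrocarbon receptor target CYP1A1 (2.28 ± 0.14, edgeR adjusted p = 0.00115), named after its value was seen. PDGFD differed by -0.22 ± 0.39 (edgeR adjusted p = 0.844), CSF1 by -0.35 ± 0.38 (0.732), KITLG by -0.50 ± 0.31 (0.522), PDGFA by -0.36 ± 0.32 (0.663) and PDGFC by 0.44 ± 0.48 (0.734). PDGFRA, the member under 0.05 unadjusted, differed by 2.32 ± 0.87 (edgeR adjusted p = 0.368) and by 0.66 without the toceranib library of KU-cHCC-001.

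DPBS was compared with DMSO as an addition made after these values were seen. PDGFD differed by 2.40 ± 0.70 (edgeR adjusted p = 0.0941), CSF1 by 1.22 ± 0.40 (0.122) and PDGFRA by -2.89 ± 1.06 (0.154). This fit had no line term, and PDGFRA with DMSO was 59.9 CPM in KU-cHCC-001 against 2.21 to 9.52 CPM in the other lines. The 605 genes high in that line had medians of -0.72 to -0.13 in the DPBS libraries, against 3.91 in its DMSO library. Over 11 alternatives the PDGFRA difference was -3.27 to -0.91. By edgeR 0 of 7 members were called, against 3.42% of 14186 genes (2.23% higher and 1.19% lower). At an unadjusted p under 0.05 there were 3 members, and 3187 of the 14186 genes. DESeq2 called 3 members, and its count over all genes is given with the alternatives below. The test takes 4 DPBS libraries as independent although they form 2 close pairs. With each pair summed, PDGFD differed by 2.41 (edgeR adjusted p = 0.553).

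The drugs were set against each other at 24 h, at the different doses of 15 µM and 30 µM. This also tests whether their differences from the shared DMSO libraries are alike. PDGFD was higher with toceranib, at 7.84 to 19.2 CPM against 0.741 to 1.504 CPM with sorafenib, and the groups did not overlap. Its log2 fold change was 3.66 ± 0.56 (SE, edgeR adjusted p = 8.53e-04), and it passed in all 12 alternatives, from 2.64 to 3.89. KITLG was lower with toceranib in 4 of 4 lines (in KU-cHCC-002 at a ratio of 0.842, with a counting interval of 0.689 to 1.03 that includes 1), at 3.79 to 10.4 CPM against 12.3 to 27.4 CPM, without overlap (-1.41 ± 0.44, edgeR adjusted p = 0.0262). PDGFA was lower in 4 of 4 lines, with 4.34 to 10.8 CPM against 10.3 to 19.0 CPM (-0.90 ± 0.28, edgeR adjusted p = 0.0264).

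These were 3 of 7 members called, against 38.4% of 14938 genes (20.1% higher and 18.3% lower), a share near that of all genes. PDGFRA (-1.09 ± 0.42, edgeR adjusted p = 0.0589), PDGFC (-0.59 ± 0.30, 0.139), PDGFB (-0.72 ± 0.80, 0.497) and CSF1 (-0.27 ± 0.28, 0.465) did not pass. PDGFRA and PDGFB were higher with toceranib in KU-cHCC-001 only. Without that line both passed (PDGFRA -1.42, edgeR adjusted p = 0.00606, and PDGFB -2.45, 0.0495). Leaving out the only line of opposite direction is a choice that favours a call, so these fits are no separate support. PDGFB then rested on 0, 0 and 4 counts with toceranib against 11, 2 and 17 with sorafenib. Counts of all genes called with a line left out are given with the alternatives of this comparison below. PDGFRA also passed by DESeq2 (-1.07, adjusted p = 0.0249), and PDGFC without the toceranib library of KU-cHCC-005 (-0.87, edgeR adjusted p = 0.0463). The calls of KITLG and PDGFA ended without the toceranib library of KU-cHCC-005 (edgeR adjusted p = 0.0746 and 0.0664), without the toceranib libraries of both KU-cHCC-004 and KU-cHCC-005 (0.184 and 0.187), without KU-cHCC-004 (0.115 and 0.135) and without KU-cHCC-005 (0.110 and 0.113). PDGFA also lost its call without the line term (0.305) and in the fit of 16 libraries (0.0586). The vehicles differ between the drugs, and the part of the vehicle in these differences was not tested.

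**Figure D3:**
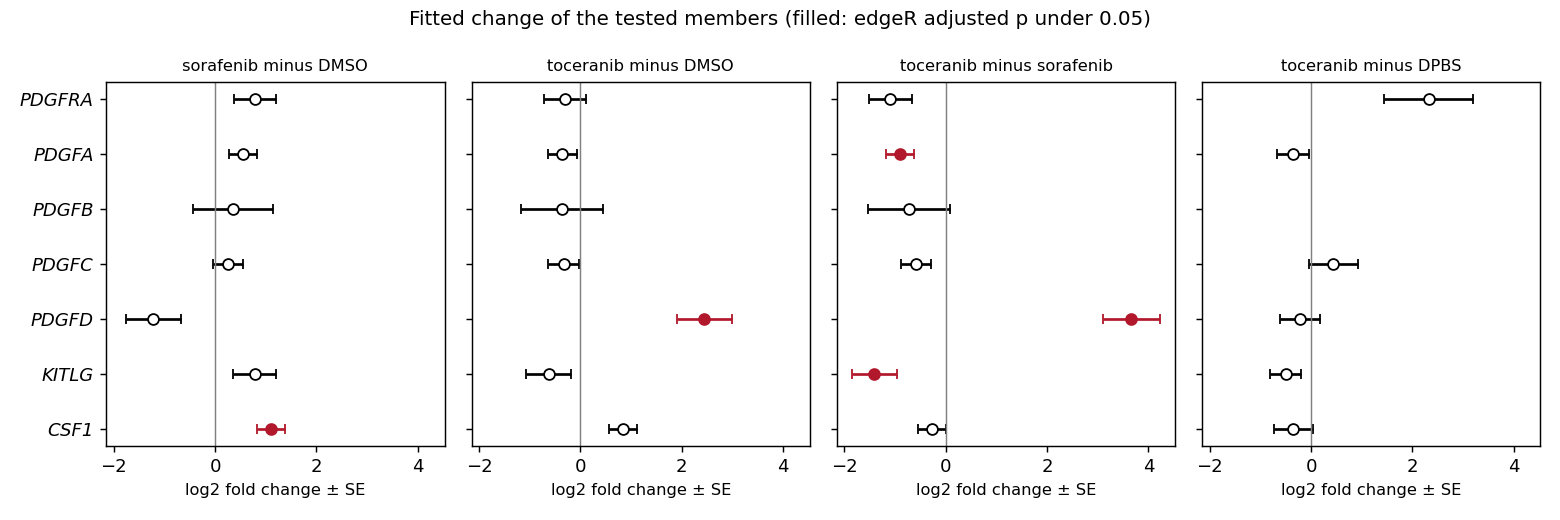
Fitted log2 fold change with its SE for the tested members in 4 comparisons; filled red points have an edgeR adjusted p under 0.05 and open points do not. CSF1 passes with sorafenib against DMSO (1.102), PDGFD with toceranib against DMSO (2.45), and PDGFD, KITLG and PDGFA with toceranib against sorafenib; none passes with toceranib against DPBS, where PDGFB was not tested.

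Other genes of these pathways were read from lists chosen with earlier results of these data known. Of 14 related receptors, kinases and ligands, 9 were tested. With sorafenib 0 were called by edgeR, against 19.6% of all genes, and 0 by DESeq2. At an unadjusted p under 0.05 there was 1, and 5153 of all 14938 genes. With toceranib against DMSO 0 were called by edgeR, against 7.46% of all genes, and 0 by DESeq2. At an unadjusted p under 0.05 there were 2, and 4120 of all 14938 genes. The following 3 were named after their values were seen. IL34, the other ligand of CSF1R, was 0.993 to 7.06 CPM with DMSO and 2.16 to 13.9 CPM with sorafenib (log2 fold change 1.104 ± 0.56, edgeR adjusted p = 0.187). DDR2, a collagen receptor, stood at 164 CPM in DMSO of KU-cHCC-001 and at 1.20 CPM or less in DMSO of the other lines. FLT3, of the same kinase class as KIT, was at most 0.84 CPM in any library.

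Of 34 partners that bind or relay these receptors 33 were tested, and 5 rose and 4 fell with sorafenib, against 19.6% of all genes called (9.59% higher and 10.1% lower), with a median log2 fold change of 0.12 against -0.02 for all genes. GAB2, a docking protein for PI3 kinase and SHP2, rose from 52.1 ± 24.6 to 228 ± 66.0 CPM (SD, n = 4; log2 fold change 2.18 ± 0.16, edgeR adjusted p = 9.69e-05). The kinase ABL2 (0.95) rose as well, while the PI3 kinase subunit PIK3CB (-0.65) and the adaptor GRB7 (-1.32) fell. With toceranib against DMSO 0 rose and 1 fell, against 7.46% of all genes called, PIK3CB (-0.56 ± 0.15, edgeR adjusted p = 0.0424), which went from 114 ± 16.1 to 77.4 ± 4.68 CPM and stood at 116 ± 6.50 CPM with DPBS. PIK3CB was thus lower than DMSO with both drugs, and the DPBS libraries lay at the level of DMSO.

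Proteases, inhibitors and co-receptors that act on these ligands, known from human and mouse, made a list of 18 genes, 17 of them tested. With sorafenib 3 rose and 3 fell, against 19.6% of all genes called, with a median log2 fold change of 0.24 against -0.02 for all genes. ADAM17, which sheds membrane-bound CSF1 and KITLG, rose from 50.4 ± 11.1 to 103.9 ± 9.99 CPM (SD, n = 4; 1.04 ± 0.22, edgeR adjusted p = 0.00949). ST14, the protease matriptase that processes PDGFD, fell from 158 ± 76.9 to 59.4 ± 23.9 CPM (-1.36 ± 0.19, edgeR adjusted p = 0.00168). MMP9, which frees soluble KITLG in mouse bone marrow, rose at low levels, from 1.101 ± 1.12 to 5.54 ± 6.84 CPM (2.39), and LRP1, a co-receptor of PDGFRB, by 0.98. With toceranib against DMSO 0 rose and 1 fell (7.46% of all genes called), the co-receptor NRP1 (-0.79 ± 0.21, edgeR adjusted p = 0.0458), at 37.5 ± 25.8 against 63.3 ± 42.6 CPM and at 30.8 ± 3.15 CPM with DPBS. The median of that list with toceranib was 0.29, against -0.0076 for all genes.

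Of 24 transcripts that growth factors induce early in cells, 22 were tested, and 3 rose and 6 fell with sorafenib, against 19.6% of all genes called (median -0.26 against -0.02 for all genes). EGR1 (-3.27), JUNB (-1.55) and IER2 (-1.22), immediate early genes, fell, and ETV5, a factor downstream of ERK, rose (1.27 ± 0.23, edgeR adjusted p = 0.00522). With toceranib against DMSO, where 7.46% of all genes were called, 1 rose, IER3 (1.07 ± 0.27, edgeR adjusted p = 0.0392), from 75.2 ± 28.4 to 159 ± 64.2 CPM, and 0 fell, with a median of -0.03. In toceranib against DPBS 33, 16 and 22 genes of these 3 lists were tested, and 0 were called by edgeR, against 0.00685% of all genes. At an unadjusted p under 0.05 there were 7, 2 and 5 of them, and 1799 of all 14588 genes tested. DESeq2 called 4, 1 and 2 of them, and its count over all genes is given with the alternatives below. With toceranib against sorafenib 4 partners were higher and 9 lower, 3 and 4 of the processing list, and 8 and 4 of the early response list, where 20.1% of all genes were higher and 18.3% lower.

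Genes whose pattern over the 12 DMSO, sorafenib and toceranib libraries was most like that of a member were found by Pearson's r of log2(CPM + 0.5), among 10954 genes with a mean of 5 CPM or more. PDGFRA and PDGFC shared ARHGEF3 (r = 0.963 and 0.966) and CDYL2 (0.961 and 0.968) among their nearest 3, with N4BP2L2 (0.967) first for PDGFRA and MYH10 (0.9496) next for PDGFC. PDGFA was nearest to PTPN21 (0.951), RHOG2 (0.948) and MIGA1 (0.932), and PDGFD to SPACA6 (0.930), SAFB (0.930) and ILVBL (0.928). KITLG was nearest to LCORL (0.980), AGO3 (0.963) and URI1 (0.954), and CSF1 to TIPARP (0.928), LOC102156502 (0.897) and ZSWIM6 (0.884). These are descriptions over 12 libraries that share 4 lines and 3 treatments.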

How the data were processed

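The authors deposited raw gene counts for 16 libraries (4 lines, 4 treatments, 1 library each), from directional RNA libraries per the labels' protocols. TopHat is named in the submitters' processing notes; for the counting tool, strand setting and genome build, the sources used here give nothing. Each file held 39954 entries, and 500 entries that share 89 symbols were summed. All 10 members matched the RefSeq gene table by symbol, which gave names and neighbours. The members and all gene lists were chosen with earlier results of these data known.

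Counts were tested with edgeR 4.0.16 in R 4.3.3 (quasi-likelihood, TMM, filterByExpr at a minimum count of 10, Benjamini-Hochberg adjustment over all genes tested, threshold 0.05), and the procedure was tested on simulated data. The 12 DMSO, sorafenib and toceranib libraries were fitted with the line as a block. Same-numbered libraries come from the same line, and their deviations from the treatment means correlated at 0.553 to 0.909 over 10912 genes. For DPBS these correlations were -0.526 to 0.545, so toceranib against DPBS used 8 libraries without the line. CPM used TMM factors of 0.891 to 1.17 from all 16 libraries. Intervals of ratios (95%, exact conditional binomial) were given where both libraries together held at least 20 counts and cover counting error only. DESeq2 1.42.0, other library sets, no filter and left-out libraries were the alternatives. Named genes were all 10 members, up to 4 genes per list by smallest p among those called, and the 3 genes most alike per member.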

Additional observations from a re-analysis of the deposited data

Results flagged for a closer look

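Among 24 groups of 4 libraries, 3 had a library far from the others. The cut-off used gives about 1 in 20 by chance for replicates of 1 condition. Each group here holds 4 different lines, so that rate does not apply. All 3 were in KU-cHCC-001, namely PDGFRA with DMSO, at 59.9 CPM, PDGFRA with toceranib, at 37.3 CPM, and PDGFA with DMSO, at 23.5 CPM. The differences of the 2 drug groups from their shared DMSO libraries were unlike for 3 members by edgeR. The log2 difference of toceranib minus sorafenib was -0.904 for PDGFA, 3.66 for PDGFD and -1.41 for KITLG. DMSO is not the vehicle of toceranib, and PDGFD was also higher with DPBS than with DMSO, by 2.40 (edgeR adjusted p = 0.0941). The part of the vehicle in these differences was not tested.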

How the results depend on the processing

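Sorafenib against DMSO called 2935 genes and 1 member, against 464 and 0 without the replicate block, 5053 and 2 in the 8 libraries of these groups, and 596 to 3906 genes and 0 to 4 members with a line left out. Toceranib against DMSO called 1115 genes and 1 member, against 2335 and 2 by DESeq2, 0 and 0 without the replicate block, 557 genes with 16 libraries, 129 and 0 with 8, 1 to 3044 genes and 0 to 2 members with a line or the toceranib library of KU-cHCC-005 left out, and 0 and 0 without the toceranib libraries of KU-cHCC-004 and KU-cHCC-005. Toceranib against sorafenib called 5737 genes and 3 members, against 2159 genes without the block, 2441 and 1 without those toceranib libraries, and 3017 to 6750 genes and 1 to 5 members with a line or the toceranib library of KU-cHCC-005 left out. Toceranib against DPBS called 1 gene, against 410 by DESeq2, 0 with the replicate block in 8 or 16 libraries, 0 without DPBS 002 and 005 and toceranib 004 and 005, 0 with DPBS pairs summed, and 1 to 28 with 1 library left out. Line differences fell from 6293 genes and 4 members to 1694 and 0 with 16 libraries. DPBS against DMSO called 485 genes and 0 members, against 1754 and 3 by DESeq2, 0 genes with the block or pairs summed, and 0 to 2378 genes and 0 to 1 members with 1 library left out.

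Signs turned for members that had not passed. Without the block, PDGFRA with sorafenib was -0.30, PDGFB with toceranib 0.44 and PDGFB between the drugs 0.17. Leaving out KU-cHCC-002 gave PDGFB -0.20 and PDGFC -0.0050 with sorafenib (ranges with a library left out -0.20 to 0.66 and -0.0050 to 0.42). Leaving out KU-cHCC-001 gave KITLG 0.0075 with toceranib (range -1.17 to 0.0075) and CSF1 0.0090 between the drugs (range -0.59 to 0.0090), and leaving out KU-cHCC-005 gave PDGFB 0.011 with toceranib (range -2.10 to 0.011). Without toceranib 004 and 005 PDGFB was 0.34. In toceranib against DPBS, PDGFC was -0.15 with 16 libraries and the block and -0.25 without toceranib 001 (range -0.25 to 0.66). The cause was not tested. The alternatives that leave out toceranib 004 and 005, and the DPBS comparison with DMSO, were chosen after seeing the data. Depth limits PDGFRB, KIT and CSF1R, which could not be tested.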
